A study of Mus musculus with 16 samples.

Results

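The 10 genes described here encode acute phase proteins, plasma and defence proteins that the liver makes in larger or smaller amounts during infection and injury. They are Saa1, Saa2 and Saa3 (serum amyloid A), Hp (haptoglobin), Orm1 and Orm2 (orosomucoid), Lcn2 (lipocalin 2), Fgb (the fibrinogen beta chain), Itih4 (an inter-alpha-trypsin inhibitor heavy chain) and Apcs (serum amyloid P). They were chosen by symbol, as positive acute phase proteins of hepatocytes, and they are 10 of the 54752 genes in the count table. Read counts came from whole liver RNA of 16 male mice aged 11 weeks, F1 hybrids of C57BL6J and FVBN, all of the genotype Ercc1Δ/−. Such mice carry a truncated and a null allele of Ercc1, a subunit of a DNA repair endonuclease, and age prematurely. No mice with intact Ercc1 are among these samples, so neither the genotype nor its effect on these genes could be checked against a normal liver.

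All animals were raised on AIN93G pellets and were assigned at random at 8 weeks of age to 1 of 4 diets, balanced for calories and eaten freely, with 4 animals on each. The high protein diet held about 194% of the standard protein and 70% of the carbohydrate. The low protein diet held 70% of the protein and about 112% of the carbohydrate. The low fat diet held 70% of the fat and about 112% of the carbohydrate, and the control animals stayed on AIN93G.

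In the acute phase response, cytokines from activated macrophages reach hepatocytes and change their secreted proteins. Interleukin 6 signals through its receptor to STAT3, interleukin 1 signals to NF-kB, and factors of the C/EBP family and glucocorticoids act on many of the same promoters. In mice serum amyloid A, orosomucoid, haptoglobin and lipocalin 2 respond strongly, serum amyloid P is a classical acute phase protein of this species, and fibrinogen responds moderately from an already high level.

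Saa1, Saa2 and Saa3 lie beside each other on chromosome 7 (GRCm38), Saa1 at chr7:46740497-46742980 on the minus strand, Saa2 at chr7:46751790-46754313 on the plus strand and Saa3 at chr7:46711998-46715700 on the minus strand. Orm1 (chr4:63344560-63348163) and Orm2 (chr4:63362449-63365878) are neighbours on the plus strand. The others lie on other chromosomes: Hp at chr8:109575128-109579172, Lcn2 at chr2:32384633-32388252, Fgb at chr3:83040141-83049863 and Apcs at chr1:172893961-172895041, all on the minus strand, and Itih4 at chr14:30886476-30902353 on the plus strand. The coding sequences of Saa1 and Saa2 were identical at 348 of 366 aligned bases (95.1%), and those of Orm1 and Orm2 at 558 of 621 (89.9%). Saa3 was further from both, with 79.1% identity to Saa1 and 78.4% to Saa2. How the counting treated reads that fit both copies is not given in the sources used here, so the split of reads within each of these pairs is uncertain.

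The stretches before the transcription start are shown for Saa1 and Saa2, as the copies whose levels moved together across animals, for Saa3 as their neighbour, for Orm2, whose level was separate in high and low protein livers, and for Fgb, which held both the C/EBP and the STAT3 type motif. Windows before the RefSeq start (build GRCm38.p6) matched 8 of the 10 genes, all but Hp and Orm1. Each is written 5′ to 3′ on the gene's own strand, without bases inside the annotated gene. Capitals mark matches to TTGCNNAA (C/EBP type), TTCNNNGAA (STAT3 type) or TGTTCT (a glucocorticoid receptor element), with either strand counted; no matches overlapped each other.
Saa1, chr7:46742981-46743230, minus strand: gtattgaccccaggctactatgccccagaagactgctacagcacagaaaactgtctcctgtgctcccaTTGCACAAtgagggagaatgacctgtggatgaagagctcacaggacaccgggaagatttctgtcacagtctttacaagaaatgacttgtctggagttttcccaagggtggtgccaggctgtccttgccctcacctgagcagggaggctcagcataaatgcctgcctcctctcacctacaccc
Saa2, chr7:46751583-46751789, plus strand: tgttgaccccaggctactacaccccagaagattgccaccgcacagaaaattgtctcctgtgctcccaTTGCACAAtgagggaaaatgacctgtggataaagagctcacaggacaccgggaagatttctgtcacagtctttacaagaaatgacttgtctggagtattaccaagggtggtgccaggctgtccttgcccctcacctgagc
Saa3, chr7:46715701-46715926, minus strand: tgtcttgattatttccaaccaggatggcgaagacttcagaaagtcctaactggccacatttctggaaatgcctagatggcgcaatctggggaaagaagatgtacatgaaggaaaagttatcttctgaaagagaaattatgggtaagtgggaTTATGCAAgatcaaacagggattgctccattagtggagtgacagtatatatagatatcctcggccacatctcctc
Orm2, chr4:63362199-63362448, plus strand: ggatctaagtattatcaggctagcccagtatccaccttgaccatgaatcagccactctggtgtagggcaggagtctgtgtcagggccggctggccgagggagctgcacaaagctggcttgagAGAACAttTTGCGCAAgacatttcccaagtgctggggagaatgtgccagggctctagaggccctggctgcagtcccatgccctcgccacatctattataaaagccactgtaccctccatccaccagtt
Fgb, chr3:83049864-83050113, minus strand: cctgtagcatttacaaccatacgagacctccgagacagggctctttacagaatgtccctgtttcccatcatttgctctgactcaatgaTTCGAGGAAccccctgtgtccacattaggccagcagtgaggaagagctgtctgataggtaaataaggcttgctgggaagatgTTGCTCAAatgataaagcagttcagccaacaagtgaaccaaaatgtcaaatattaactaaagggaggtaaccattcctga

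Over the 250 bases before the start, Saa1 and Saa2 were identical at 238 of 249 aligned bases (95.6%), and both held the same C/EBP type match, TTGCACAA. The C/EBP type motif occurred in 6 of the 8 windows (Saa1, Saa2, Saa3, Orm2, Lcn2 and Fgb), against 9.56% of 32851 windows of this length. The STAT3 type motif occurred in 3 of the 8 (Fgb, Itih4 and Apcs), against 7.02% of all windows. The TGTTCT motif occurred in 2 of the 8 (Orm2 and Apcs), against 16.1%. An NF-kB type motif was in the letters of 0 of the 8, against 1.41%. The matches describe the sequence and say nothing of binding.

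Library totals ran from 37317405 to 46899907 counts with high protein, from 36662347 to 43404769 with low protein, from 36871852 to 112789127 with low fat and from 35243594 to 46051218 in control. The 12 hepatocyte markers were detected in every library. Control 4 stood apart from its group, with an SD of 1.29 log2 units over all genes from the mean of the other controls, against 1.01 for control 3 and 0.43 to 0.83 for the other 14. Kidney tubule markers (18 measured) summed to 1.56 to 1511 CPM (counts scaled to a common library total) with high protein, 655 to 1212 with low protein, 983 to 3028 with low fat and 93.5 to 5096 in control, highest in control 3. Gene levels below are CPM after TMM scaling of library size, a correction for differences in RNA composition. Sums of cell type markers, and the single markers named with them, are CPM of library totals without TMM scaling. In whole liver, fewer cells that express a gene cannot be told apart from less RNA per cell.

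Adjusted for all 17833 genes tested, none of the 10 acute phase genes passed the test between diets (adjusted p under 0.05 in edgeR, passed by 0% of all genes in each comparison). Their largest differences between diets were in Saa1, Saa2 and Orm2: mean Saa1 was highest in the low fat livers and lowest in the high protein and control livers, and every high protein liver held more Orm2 than every low protein liver. All 4 high protein livers lay above all 4 low protein livers for 3.15% of all genes tested. Every other acute phase gene overlapped between the animals of each pair of diets compared, as did Orm2 in the other pairs. Single animals also differed widely, above all control 4. There serum amyloid A was the lowest of 16 livers, and haptoglobin and lipocalin 2 were the highest.

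Compared per length, as CPM per kilobase of annotated exon (RPKM), the genes differed widely in level. Hp was the most abundant, with a mean of 2275 RPKM over 16 livers, followed by Fgb with 864 RPKM. Orm1 (336 RPKM) and Itih4 (326 RPKM) followed, with Orm1 above Itih4 in 9 of 16 livers, so these neighbours were not separated. Apcs had 67.4 RPKM. Orm2 (12.8 RPKM) and Saa1 (10.2 RPKM) again could not be ordered, with Orm2 above in 9 of 16, and Lcn2 (5.80 RPKM) and Saa2 (4.61 RPKM) crossed likewise, with Lcn2 above in 6 of 16. Saa3 was lowest with 0.827 RPKM. The deposited exon length of Saa1, 2478 bases, covers nearly the whole gene of 2484 bases, and that of Saa2 2518 of 2524. Their RPKM is therefore small relative to a short spliced mRNA, and their place in this order depends on that length. The RPKM of Saa3 (2606 of 3703 bases), Lcn2 (2623 of 3620) and Fgb (3810 of 9723) rests on their summed exon lengths likewise.

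**Figure D1:**
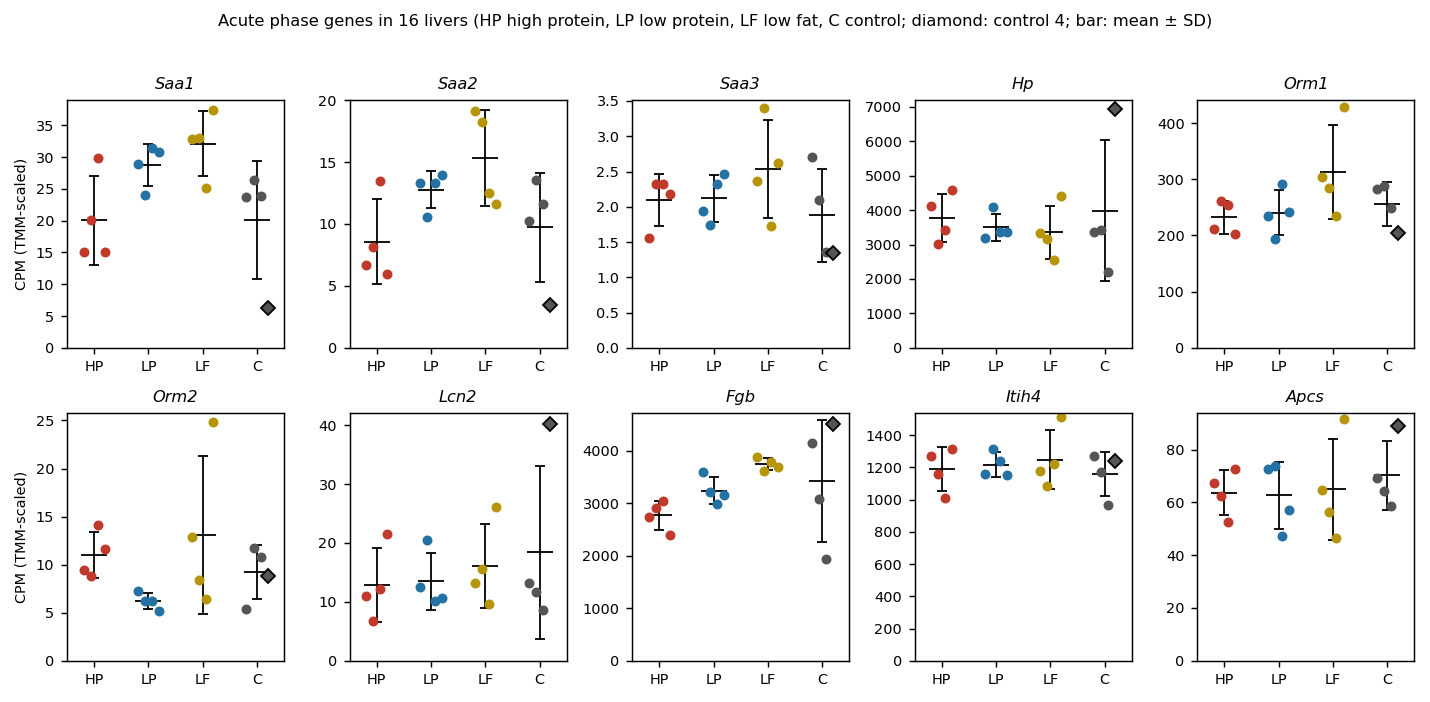
Level of each of the 10 acute phase genes in each liver, in CPM after TMM scaling on a linear axis from 0, for the high protein (HP), low protein (LP), low fat (LF) and control (C) diets; points are animals, the diamond is control 4 and bars are the mean ± SD of 4. Control 4 lies at 6.26 CPM for Saa1 and 40.2 CPM for Lcn2, apart from the other 3 controls in opposite directions, and Orm2 in the high protein livers lies above all low protein livers.

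The serum amyloid A genes encode small apolipoproteins that load onto high density lipoprotein during inflammation. Saa1 had 15.1, 20.1, 29.8 and 15.1 CPM in the high protein livers, 28.9, 24.1, 31.4 and 30.8 CPM in the low protein livers, 32.8, 33.0, 25.2 and 37.4 CPM in the low fat livers, and 23.7, 26.5, 23.9 and 6.26 CPM in the control livers. The low protein and low fat livers all held at least 24.1 CPM, while 3 of the 4 high protein livers and control 4 lay at 20.1 CPM or less. Saa1 was 0.67 log2 units higher in low fat than in control livers (SE 0.33, 95% interval -0.03 to 1.38, edgeR adjusted p = 0.546). The difference from control was 0.52 with low protein (interval -0.19 to 1.22, adjusted p = 0.701) and -0.01 with high protein (interval -0.71 to 0.70, adjusted p = 0.996). High protein against low protein gave -0.52 (interval -1.23 to 0.18, adjusted p = 0.972). Without control 4, the difference from control was -0.31 in high protein, 0.20 in low protein and 0.35 in low fat livers.

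Saa2, the close copy of Saa1, had 6.72, 8.12, 13.5 and 5.94 CPM with high protein, 13.3, 10.6, 13.3 and 13.9 CPM with low protein, 19.1, 18.3, 12.5 and 11.6 CPM with low fat, and 10.2, 13.6, 11.6 and 3.50 CPM in control. The same 3 high protein livers and control 4 were the lowest of the 16. Saa2 differed by 0.66 log2 units between low fat and control (SE 0.34, edgeR adjusted p = 0.557), or 0.35 without control 4, and by -0.58 between high protein and low protein (SE 0.34, adjusted p = 0.970). In a test for any difference among the 4 diets, the unadjusted p was 0.121 for Saa1 and 0.0931 for Saa2. Without control 4 it was 0.0216 for Saa1 and 0.0264 for Saa2, with adjusted p of 0.386 and 0.400. The ratio of Saa1 to Saa2 counts ran from 1.72 in low fat 1 to 3.23 in low fat 4 (median 2.21).

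Saa3, which in mice is made mainly outside hepatocytes by macrophages and fat cells, was detected at 1.35 to 3.40 CPM. It averaged 2.10 ± 0.371 CPM with high protein, 2.12 ± 0.337 CPM with low protein, 2.53 ± 0.695 CPM with low fat and 1.88 ± 0.653 CPM in control (SD, n = 4 each). Its largest difference was 0.44 log2 units between low fat and control (SE 0.27, edgeR adjusted p = 0.607), or 0.26 without low fat 2. The Kupffer cell markers (11 measured) summed to 232 to 306 CPM with high protein, 239 to 355 CPM with low protein, 273 to 442 CPM with low fat and 170 to 306 CPM in control, while those of recruited monocytes and macrophages (12 measured) summed to 1281 to 1729, 1536 to 2018, 1654 to 2038 and 1513 to 1954 CPM in the same order of diets. Most of this second sum was Fn1, at 1185 to 1920 CPM over all libraries, so the sum mainly gives the level of that gene. Its other markers reached at most 115 CPM (Spp1), and Ccr2 at most 2.82 CPM. The adipocyte markers (8 measured) summed to 4087 to 5753 CPM with high protein, 1333 to 3048 CPM with low protein, 1906 to 2771 CPM with low fat and 2144 to 12717 CPM in control, nearly all of it Pck1, a gene that hepatocytes also express, with Adipoq at 0 in 11 libraries. The part of these cells in the Saa3 level was not tested. As for Saa1 and Saa2, the mean was highest in the low fat livers and the lowest liver was control 4, here level with control 3 at 1.35 CPM.

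The orosomucoids are acidic glycoproteins that bind small molecules in plasma. Orm2 had 9.46, 8.79, 14.1 and 11.6 CPM in the high protein livers and 7.30, 6.24, 6.21 and 5.18 CPM in the low protein livers. It had 12.9, 8.45, 6.43 and 24.8 CPM in the low fat livers and 5.43, 11.7, 10.8 and 8.84 CPM in the control livers. All 4 high protein livers lay above all 4 low protein livers, as they did for 3.15% of all genes tested. Orm2 was 0.82 log2 units higher with high protein than with low protein (SE 0.35, 95% interval 0.08 to 1.55), with an unadjusted p of 0.0317 and an edgeR adjusted p of 0.947. Low protein against control gave -0.56 (SE 0.35, adjusted p = 0.693), and high protein against control gave 0.25 (SE 0.34, adjusted p = 0.858), or 0.08 without control 1. Low fat against control gave 0.51 (SE 0.34, adjusted p = 0.637), a value carried by low fat 4, without which it was -0.01.

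Orm1, the more abundant paralogue, had 212, 261, 254 and 203 CPM with high protein, 235, 194, 291 and 241 CPM with low protein, 305, 284, 234 and 429 CPM with low fat, and 282, 289, 248 and 205 CPM in control. Its counts were 17.3 to 52.0 times those of Orm2 in the same liver (median 27.1), highest in control 1 and lowest in low fat 4. The ranges of high and low protein, separate for Orm2, overlapped for Orm1, with a difference of -0.05 log2 units (SE 0.18, edgeR adjusted p = 0.998). Low fat against control gave 0.29 (SE 0.18, adjusted p = 0.613), and 0.08 without low fat 4. Orm1 reads counted under Orm2 would weigh on the smaller Orm2 count, and the part of such reads was not tested.

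Haptoglobin binds free haemoglobin and prevents its loss through the kidney. Hp had 4113, 3007, 3434 and 4571 CPM with high protein, 3176, 4079, 3359 and 3369 CPM with low protein, 3325, 3146, 2538 and 4398 CPM with low fat, and 3365, 3430, 2191 and 6945 CPM in control. The control livers held both the lowest value (control 3) and the highest (control 4) of the 16. Hp differed from control by -0.07 log2 units with high protein (SE 0.28, edgeR adjusted p = 0.956), by -0.19 with low protein (SE 0.28, adjusted p = 0.857) and by -0.25 with low fat (SE 0.28, adjusted p = 0.774). Without control 4 these became 0.33, 0.20 and 0.13, all of the opposite sign.

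Lipocalin 2 binds bacterial siderophores and so withholds iron from microbes. Lcn2 had 11.0, 6.83, 12.1 and 21.6 CPM with high protein, 12.5, 20.5, 10.1 and 10.7 CPM with low protein, 13.2, 15.6, 9.59 and 26.1 CPM with low fat, and 13.2, 11.7, 8.59 and 40.2 CPM in control. Each diet had 1 liver well above its other 3, and control 4 was the highest of all. Its differences from control were -0.52 in high protein, -0.45 in low protein and -0.19 in low fat livers (SE 0.46 to 0.47, edgeR adjusted p 0.794 to 0.900), and without control 4 they were 0.20, 0.25 and 0.50. Lcn2 is also made by neutrophils and by injured kidney tubules. The 13 neutrophil markers summed to 2.45 to 3.77 CPM with high protein, 2.53 to 3.64 CPM with low protein, 2.78 to 4.26 CPM with low fat and 1.63 to 4.84 CPM in control, highest in control 4, with 5 of the 13 above 0 in all libraries and S100a8 at 0.573 CPM or less. Of the 3 livers with the highest Lcn2, high protein 4 had a kidney marker sum of 836 CPM, low fat 4 of 2688 CPM and control 4 of 255 CPM, and control 3, with the highest sum (5096 CPM), had 8.59 CPM of Lcn2. The part of neither neutrophil nor kidney RNA in the Lcn2 level was tested.

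Fgb encodes a chain of fibrinogen, the precursor of the fibrin clot. It had 2730, 2909, 3040 and 2400 CPM with high protein, 3587, 3209, 2977 and 3162 CPM with low protein, 3885, 3616, 3780 and 3696 CPM with low fat, and 4154, 3086, 1929 and 4515 CPM in control. The low fat livers were the most alike, with a coefficient of variation of 3.07%, against 10.0% with high protein, 7.92% with low protein and 34.1% in control. Fgb was -0.30 log2 units in high protein against control (SE 0.20, 95% interval -0.72 to 0.11, edgeR adjusted p = 0.763), or -0.47 without control 3 and -0.15 without control 4, and -0.22 against low protein (SE 0.20, adjusted p = 0.995). The partner chains Fga and Fgg, chosen after their values were seen, averaged 2650 ± 281 and 1987 ± 254 CPM with high protein and 3374 ± 1157 and 2677 ± 883 CPM in control (SD, n = 4 each).

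Itih4 and Apcs varied least between diets. Itih4, whose product is a substrate of plasma kallikrein, had 965 to 1510 CPM over the 16 livers, with diet means of 1188 ± 136 CPM with high protein, 1216 ± 76.5 CPM with low protein, 1248 ± 183 CPM with low fat and 1160 ± 137 CPM in control (SD, n = 4 each). Apcs, a pentraxin that binds amyloid fibrils and microbial surfaces, had 46.7 to 91.6 CPM, with 63.8 ± 8.58 CPM with high protein, 62.7 ± 12.7 CPM with low protein, 64.9 ± 19.3 CPM with low fat and 70.3 ± 13.2 CPM in control. Every difference of either gene from control or between high and low protein was small, the farthest from 0 being -0.16 log2 units (Apcs, low protein against control). Their narrow intervals bound the diet effect more tightly than for Lcn2: Itih4 in high protein against control lay between -0.25 and 0.32, and Lcn2 between -1.51 and 0.48.

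**Figure D2:**
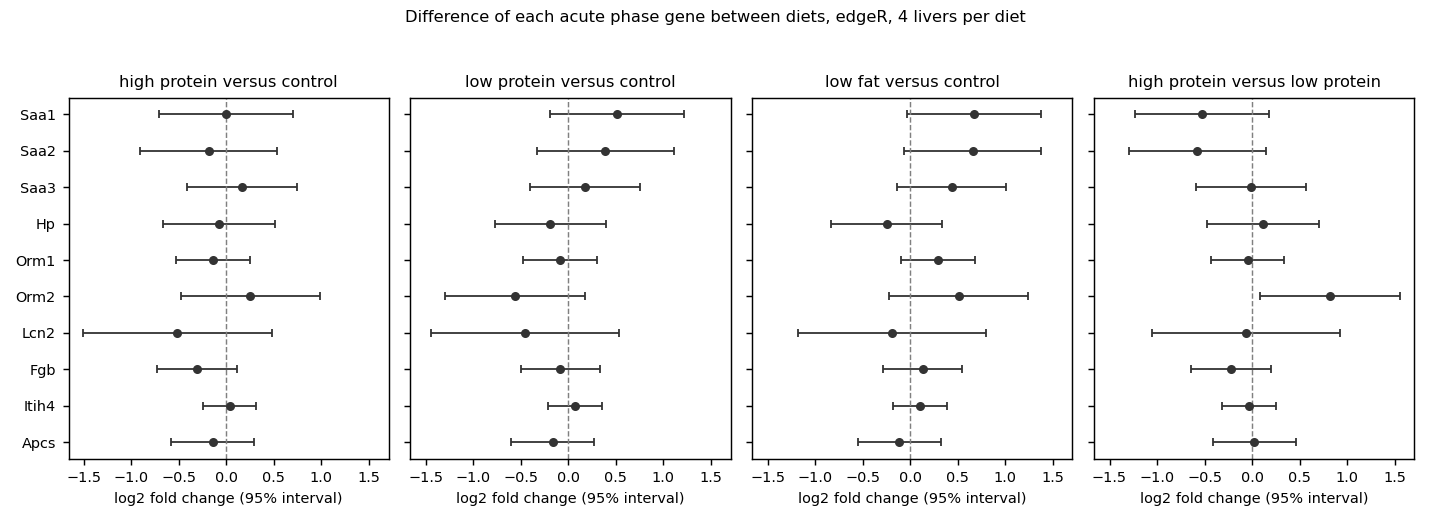
Difference between diets in log2 units for each acute phase gene, as points with 95% intervals from edgeR, in 4 comparisons whose first named diet is on top of the ratio. Only the Orm2 interval for high protein versus low protein (0.08 to 1.55) leaves 0 out, and the intervals of Lcn2 are the widest.

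In edgeR, high protein against control called 0 of 17833 genes (0% at adjusted p under 0.05) and 1109 (6.22%) at an unadjusted p under 0.05, and DESeq2 called 1. Of the acute phase genes 0 of 10 met either edgeR limit. Low protein against control called 0% adjusted and 1262 genes (7.08%) unadjusted, with 10 called by DESeq2 and 0 of 10 acute phase genes at either limit. Low fat against control called 0% adjusted and 1644 genes (9.22%) unadjusted, with 4 called by DESeq2 and again 0 of 10 acute phase genes. High protein against low protein called 0% adjusted and 922 genes (5.17%) unadjusted, with 23 called by DESeq2, and 1 of 10 acute phase genes (Orm2) met the unadjusted limit. The test for any difference among the 4 diets called 0% adjusted and 1175 genes (6.59%) unadjusted, with 62 called by DESeq2. There Orm2 alone met the unadjusted limit, with an edgeR adjusted p of 0.737 (unadjusted p = 0.0454). DESeq2 called 0 of the 10 in every comparison. Without control 3, low fat against control called 109 genes in edgeR, and without high protein 3, high against low protein called 2 and the test over the diets 1, with 0 of the 10 acute phase genes among them. In the comparisons with control, 0 of the 10 had all treated livers above all control livers, as 1.12% of all genes had in high protein, 1.61% in low protein and 1.27% in low fat livers. These shares of members are near those of all genes. The 3 comparisons with control share the same 4 control livers and are not independent.

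Relative to control, 3 of the 10 genes were higher and 7 lower with high protein, with a median of -0.11 log2 units against -0.06 for all genes tested. With low protein 4 were higher and 6 lower (median -0.09, against -0.03 for all genes), and with low fat 7 were higher and 3 lower (median 0.21, against -0.02). High protein against low protein had 3 higher and 7 lower (median -0.04, against -0.02).

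Other genes of the response were read from 3 further lists, to be set beside the same shares and medians of all genes. Of 30 other positive acute phase genes tested, 0 passed the adjusted test in any comparison, and 13 were higher and 17 lower with high protein than in control (median -0.05 log2 units), 12 and 18 with low protein (-0.10), and 14 and 16 with low fat (-0.03). High against low protein had 15 higher and 15 lower (median -0.05). Nnmt, which methylates nicotinamide, had 88.4 to 384 CPM with high protein, 31.3 to 61.0 CPM with low protein, 35.9 to 105 CPM with low fat and 48.6 to 624 CPM in control, where control 4 held the 624 CPM and no other control more than 111 CPM. Orm3, the third orosomucoid gene of the mouse, had at most 1.30 CPM in the livers of the changed diets, against 0.188 to 0.813 CPM in controls 1 to 3 and 16.5 CPM in control 4.

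Negative acute phase genes are those the liver lowers during the response. Of 16 tested, 11 were higher and 5 lower with high protein than in control (median 0.03 log2 units), 10 and 6 with low protein (0.02), and 5 and 11 with low fat (-0.13), with 0 past the adjusted test. High against low protein had 8 higher and 8 lower (median -0.0046). Cyp7a1, the rate-limiting enzyme of bile acid synthesis, had 39.4 to 554 CPM with high protein, 24.7 to 136 CPM with low protein, 35.3 to 136 CPM with low fat and 162 to 325 CPM in control, with an edgeR adjusted p of 0.695 over the 4 diets. Apom, an apolipoprotein of high density lipoprotein, averaged 137 ± 20.5 CPM with high protein, 113 ± 9.65 CPM with low protein, 100 ± 16.5 CPM with low fat and 114 ± 7.98 CPM in control (edgeR adjusted p = 0.731).

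Of 34 signalling genes tested (cytokines, receptors, kinases and transcription factors of the response), 9 were higher and 25 lower with high protein than in control (median -0.12 log2 units, with 41.7% of all genes higher), 15 and 19 with low protein (-0.05), and 12 and 22 with low fat (-0.12), with 0 past the adjusted test. High against low protein had 16 higher and 18 lower (median -0.0089). The cytokines Il6, Tnf and Osm did not pass the filter on low counts, with 0 to 7 counts of Il6, 0 to 56 of Tnf and 0 to 4 of Osm per library. Control 4 held the highest level of 18 of the 34 (52.9%), against 29.1% of all genes, and its part in the comparisons of this list with control was not tested. Cebpd, a C/EBP factor induced early in the response, averaged 14.3 ± 6.17 CPM with high protein, 4.85 ± 1.90 CPM with low protein, 4.99 ± 1.66 CPM with low fat and 20.9 ± 28.6 CPM in control (SD, n = 4 each). The high protein livers held 8.18 to 22.9 CPM of Cebpd, against 5.94 to 7.78 CPM in controls 1 to 3 and 63.8 CPM in control 4. Il1r1, the signalling receptor of interleukin 1, had 58.5 to 81.0 CPM with high protein, 34.2 to 52.0 CPM with low protein and 24.2 to 56.8 CPM with low fat. In controls 1 to 3 it had 21.6 to 56.9 CPM, and in control 4 657 CPM. With control 4 included, high protein against control gave -0.54 log2 units for Cebpd and -1.51 for Il1r1, and the livers of these diets overlapped for both genes. How many of all genes part from control once control 4 is set aside was not counted. Cebpa, the C/EBP factor of mature hepatocytes, averaged 391 ± 109 CPM with high protein, 474 ± 46.8 CPM with low protein, 286 ± 24.9 CPM with low fat and 432 ± 128 CPM in control. Over the 4 diets the edgeR adjusted p was 0.695 for Cebpd, 0.695 for Il1r1 and 0.728 for Cebpa.

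Acute phase levels also differed between animals. Within a diet, the SD of log2 level was 0.70 for Lcn2, 0.57 for Saa1, 0.55 for Saa2 and 0.52 for Orm2, against 0.17 for Itih4, the steadiest. Over the 10 genes the median was 0.386, near the 0.388 of all genes tested. The highest liver exceeded the lowest 5.97-fold for Saa1, 5.89-fold for Lcn2, 5.45-fold for Saa2, 4.79-fold for Orm2 and 3.17-fold for Hp. Diet means took up a median of 23.8% of the variance of the acute phase genes and 20.5% of that of all genes.

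**Figure D3:**
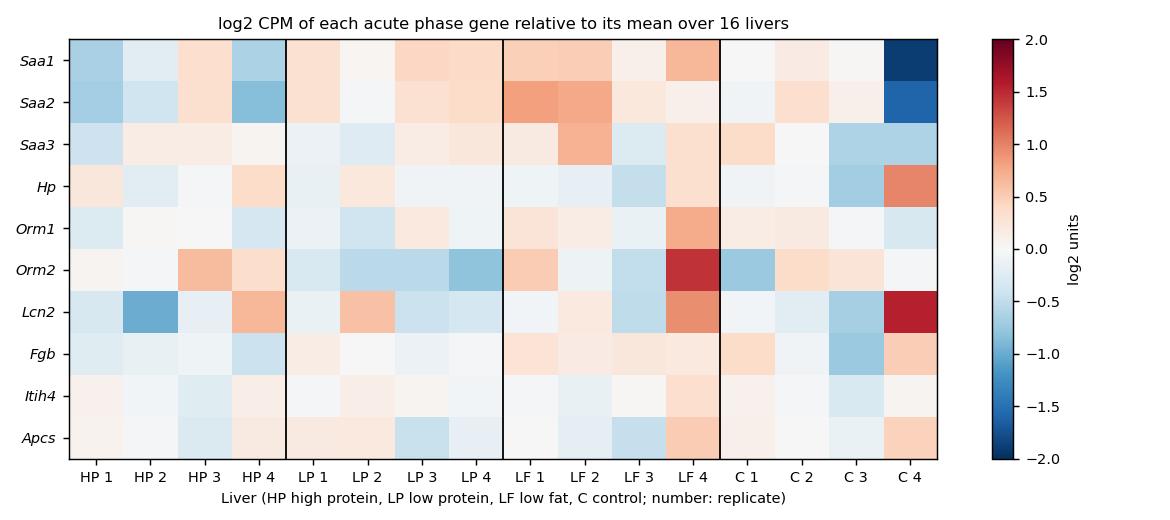
Level of each acute phase gene in each liver in log2 units relative to its mean over the 16 livers (red above, blue below), with diets in blocks. Control 4 is the darkest column, blue for Saa1 and Saa2 and red for Hp and Lcn2, and low fat 4 is red for Orm2 and Lcn2.

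In control 4 the acute phase genes went in opposite directions. Relative to the mean of controls 1 to 3, Saa1 was at 0.253-fold, Saa2 at 0.297-fold and Saa3 at 0.658-fold, while Lcn2 was at 3.61-fold, Hp at 2.32-fold, Fgb at 1.48-fold and Apcs at 1.39-fold. Control 4 was the highest of the 16 livers for 3 of the 10 genes (Hp, Lcn2 and Fgb) and the lowest for 3 (Saa1, Saa2 and Saa3), against 29.1% and 26.1% of all genes tested. Its TMM factor, 0.778, was lower than that of control 3, 1.156. A low factor raises every level of a liver relative to its library total. The folds of Fgb and Apcs in control 4, and Fgb being highest there, depend on this scaling. Relative to library totals, Fgb was lower in control 4 (147097 of 41906735 counts) than in control 1 (143097 of 35243594). Apcs was close in control 4 (2897 counts) and control 3 (3118 of 46051218). The Kupffer cell marker sum was also lowest in control 4 (170 CPM) and the neutrophil marker sum highest (4.84 CPM). The adipocyte marker sum was highest there as well, at 12717 CPM (Pck1 alone 12702 CPM), against at most 5753 CPM in the others, while the T and NK cell sum (13 markers, 2.03 CPM) and the cholangiocyte sum (8 markers, 32.8 CPM) were the lowest. On library totals the hepatocyte marker sum was 104425 CPM, inside the range of the other 15, with Alb alone at 55249 CPM. On the TMM scale used for the acute phase genes it would be higher, as Alb alone was 71069 CPM. The place of the sum among the 16 livers on that scale was not examined. Single hepatocyte markers in control 4, also on library totals, went both ways. Fabp1 (27.5 CPM), Apob (2759 CPM) and Apoa2 (1057 CPM) were the lowest of the 16 livers. Tat (16581 CPM), Tdo2 (3420 CPM), Ass1 (7740 CPM) and Hnf4a (1291 CPM) were the highest, and the remaining markers lay inside the range. The part of these sums and markers in the levels of control 4 was not tested. Over all genes, too, control 4 was more often at an end of the range than any other liver.

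A different liver led for another set: low fat 4 was the highest of 16 for 5 of the 10 (Saa1, Orm1, Orm2, Itih4 and Apcs), against 2.94% of all genes. Control 3 was the lowest for 3 (Hp, Fgb and Itih4), against 8.22% of all genes. Its hepatocyte marker sum was also the lowest, at 81084 CPM, against 85932 to 105985 CPM with high protein, 90491 to 113365 CPM with low protein, 90204 to 100606 CPM with low fat and 104342 to 110853 CPM in the other controls. Its kidney tubule (5096 CPM) and cholangiocyte (185 CPM) sums were the highest, and the part of these in its acute phase levels was not tested. The B cell markers (9 measured) were also highest in low fat 4, at 35.7 CPM, and the part of this in the acute phase levels was not tested.

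Across the 16 livers, pairs of acute phase genes were compared by the correlation of log2 level, with permutation p-values (100000 resamples) adjusted over all 45 pairs. Saa1 and Saa2 followed each other most closely, with Pearson r = 0.937 (p = 1e-05, the smallest the resamples can give, adjusted p = 0.00045) and Spearman rho = 0.847 (p = 7e-05, adjusted p = 0.00315). Without the 2 livers farthest from the median of Saa1, r was 0.855. Reads that fit both copies can enter both counts or be split between them, and the part of this in the relation was not tested.

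Hp and Lcn2 formed a second pair, with r = 0.852 (permutation p = 6e-05, adjusted p = 0.00135), rho = 0.697 (permutation p = 0.00343, adjusted p = 0.0386) and r = 0.734 without the 2 farthest livers. Apcs went with both, at r = 0.708 with Hp (permutation p = 0.00196, adjusted p = 0.0220; rho = 0.647, permutation p = 0.008, adjusted p = 0.0455) and r = 0.742 with Lcn2 (permutation p = 0.00096, adjusted p = 0.0144; rho = 0.735, permutation p = 0.00174, adjusted p = 0.0386). Without the 2 farthest livers these were 0.702 and 0.504. With diet means removed, r was 0.916 for Saa1 and Saa2, 0.921 for Hp and Lcn2, 0.723 for Hp and Apcs and 0.753 for Lcn2 and Apcs, with permutation p adjusted over the 45 pairs of 0.0481, 0.00495, 0.0146 and 0.01665 in the same order.

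Saa1 and Orm1 were related by rank, with rho = 0.703 (permutation p = 0.00318, adjusted p = 0.0386), while r was 0.628 (permutation p = 0.0193, adjusted p = 0.0839). Without the 2 farthest livers r was 0.657, and without control 4 alone it was 0.684. With diet means removed r was 0.662 (permutation p = 0.00022, adjusted p = 0.00495).

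Saa2 and Hp ran opposite, with r = -0.686 (permutation p = 0.0053, adjusted p = 0.0477) and rho = -0.415 (permutation p = 0.111, adjusted p = 0.313). Without the 2 farthest livers r was -0.205, and without control 4 alone it was -0.40, so this relation rests on those livers. In all, 5 of the 45 pairs had an adjusted Pearson p under 0.05, 4 of them positive, 8 had an adjusted Spearman p under 0.05, and 4 had both. Besides Saa1 and Orm1, the pairs that passed by rank alone were Saa3 and Orm1, Hp and Itih4, and Itih4 and Apcs. Their rho was 0.665, 0.650 and 0.668, with adjusted permutation p of 0.0454, 0.0455 and 0.0454 in the same order. Leaving out control 4 changed the sign of r in 7 of the 45 pairs.

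**Figure D4:**
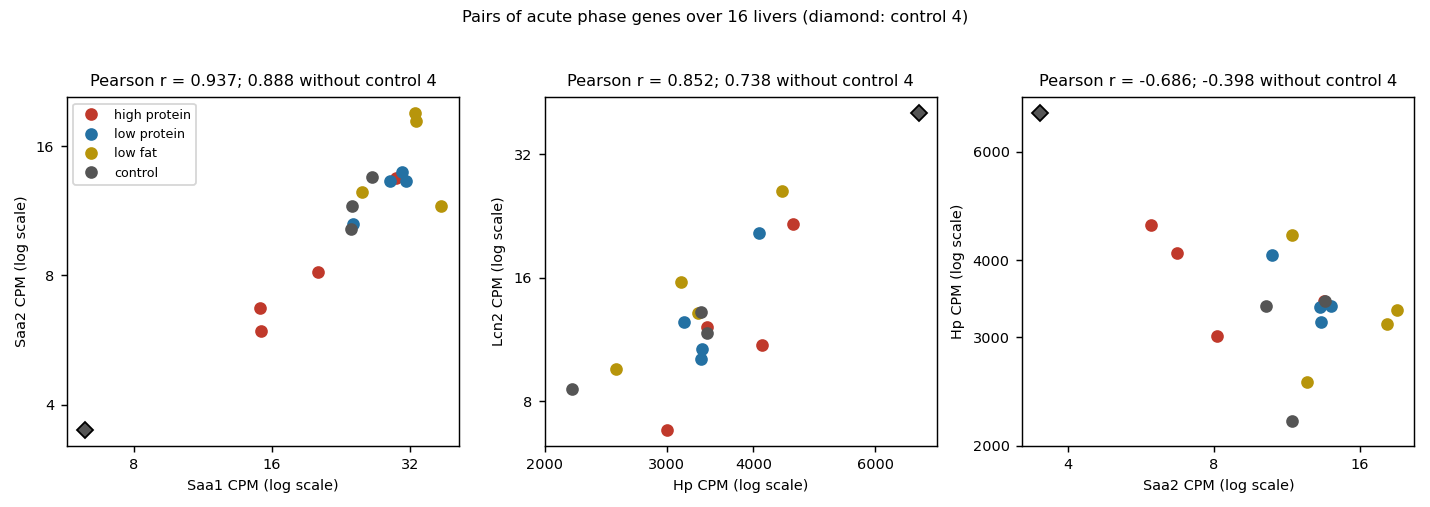
Levels of 3 pairs of acute phase genes in the 16 livers in CPM on log axes, coloured by diet, with control 4 as a diamond. Saa2 follows Saa1 with and without control 4 (r = 0.937 and 0.888), Lcn2 follows Hp (0.852 and 0.738), and the opposite course of Hp and Saa2 weakens without control 4 (-0.686 and -0.398).

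Outside the 10 acute phase genes, those whose level over the 16 livers was most like that of Saa1 were Gm32063 (r = 0.958), Zfp101 (0.943), Gm32856 (0.937), Lpar6 (0.936) and Pkib (0.934), by Pearson correlation of log2 CPM. Without control 4 they ran from 0.808 to 0.875. Those most like the mean standardised level of the 10 acute phase genes were Ctsc (0.853), Lrg1 (0.781), Mkks (0.763), Gm7816 (0.730) and Hist1h2ag (0.712), and the first 2 changed little without control 4, at 0.856 and 0.781. Lrg1 encodes a leucine-rich glycoprotein of plasma and is itself an acute phase gene, and Ctsc encodes cathepsin C, a protease that activates granule enzymes of leukocytes. Being the best of 17833 genes, these values are descriptions and were not tested.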

How the data were processed

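Liver RNA was sequenced from 16 mice, 4 per diet, grouped by sample title. The authors deposited unnormalised counts of reads for each gene, with summed exon lengths, in a single table. The submitters' processing notes name Trimmomatic 0.39, STAR 2.7.0f, featureCounts of Subread 1.6.4, edgeR 3.32.1 and the build GRCm38.p6. The library kit was directional, per the labels' protocols. The counting's strand setting and its handling of multi-mapping reads are not given. Of 54752 gene IDs, 53861 matched GENCODE M21.

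In edgeR 4.0.16 (R 4.3.3), 17833 genes passed filterByExpr, all 10 acute phase genes among them. Counts were TMM-scaled, and the quasi-likelihood fit had a mean for each diet and 12 residual degrees of freedom. The tests were 4 two-sided contrasts and 1 test over all diets, with Benjamini-Hochberg adjustment over all genes and a threshold of 0.05. Fold changes are from these fits. Correlations used log2 CPM with a prior count of 2, and cell type sums use CPM of library totals. The labels give neither litters nor cages, and p-values reflect only how much these 16 samples varied.

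The members and lists were chosen with earlier results of these data known. Genes named outside the 10 were, in each gene list, up to 3 with the smallest p under 0.05 over the diets. The 5 most correlated with Saa1 and with the mean of the members were also named. Fga, Fgg and the single cell type markers were chosen after their values were seen. 1 gene that this rule names is not reported here. On simulated data for high protein versus control (17833 genes), edgeR recovered 2, 14, 46 and 49 of 50 genes changed by 1.5-, 2-, 4- and 8-fold, with 3 false calls. Alternatives were RLE and upper-quartile factors, 2 other filters, DESeq2 1.42.0, voom weights (limma 3.58.1), compared groups only, a replicate block, summed copies and each library left out. Mbl2, Cd14, Rbp4, Jak2, Nfkb2, Rela and Nr3c1 of the lists were not analysed here.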

Additional observations from a re-analysis of the deposited data

Results flagged for a closer look

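Saa1 was lowest in control 4 at 6.26 CPM, against 23.7 to 26.5 CPM in the other 3 controls, a gap of 0.866 of the range of the group, over the 95% limit of Dixon for 4 samples. Lcn2 was highest in control 4 at 40.2 CPM, against 8.59 to 13.2 CPM in the other 3, a gap of 0.855 of the range. Both flags fell on the same liver. They are 2 of 40 groups of 4 animals examined (10 genes on 4 diets), and chance alone flags about 1 in 20 groups.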

How the results depend on the processing

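Calls over all genes were 0 in every comparison except as follows. DESeq2 called 1 gene for high protein versus control, 10 for low protein versus control, 4 for low fat versus control, 23 for high protein versus low protein and 62 for any difference among the diets. With each library left out in turn the counts ran from 0 to 0, 0 to 0, 0 to 109 (the highest without control 3), 0 to 2 and 0 to 1 (both highest without high protein 3) in the same order. No acute phase gene was called under any alternative; the smallest adjusted p was 0.164 (Orm2, high protein versus low protein, compared groups only) and 0.268 with a library left out.

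Some differences of acute phase genes changed sign, in log2 units. Among them were large ones, such as Orm2 between high and low protein (0.82 in the main fit). Against control, high protein gave Saa1 0.0198 with the replicate block, Hp 0.0212 with upper-quartile factors, 0.15 with voom weights and 0.00949 with the replicate block, Saa3 -0.0808 and Itih4 -0.0211 with voom weights, and Orm2 -0.14 with copies summed. Low protein gave Saa3 -0.0358, Hp 0.0793 and Lcn2 0.0731, and low fat gave Hp 0.0245 and Lcn2 0.33, all with voom weights. High protein versus low protein gave Orm2 -0.0194 with copies summed, a sum that is mostly Orm1 by construction. The cause of the other reversals was not tested.

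With each library left out in turn, 20 of the 40 differences changed sign at least once. Relative to control, the ranges with high protein were -0.31 to 0.15 for Saa1, -0.50 to 0.0183 for Saa2, -0.24 to 0.33 for Hp, -0.86 to 0.20 for Lcn2 and -0.0198 to 0.11 for Itih4. With low protein they were -0.36 to 0.20 for Hp, -0.20 to 0.00017 for Orm1, -0.73 to 0.25 for Lcn2 and -0.26 to 0.0618 for Fgb. With low fat they were -0.42 to 0.13 for Hp, -0.0131 to 0.74 for Orm2, -0.53 to 0.50 for Lcn2, -0.0380 to 0.26 for Fgb, -0.0155 to 0.18 for Itih4 and -0.34 to 0.0145 for Apcs. Between high and low protein they were -0.10 to 0.11 for Saa3, -0.14 to 0.0570 for Orm1, -0.42 to 0.21 for Lcn2, -0.0714 to 0.0446 for Itih4 and -0.0901 to 0.11 for Apcs. Leaving out control 4 reversed Hp and Lcn2 in all 3 comparisons with control.

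Replicate numbers in the titles did not clearly pair the animals. Over 24 same-number pairs across diets the correlation of deviations had a median of 0.0386 (-0.201 to 0.301), and 8 were over 0.1. Over the 72 pairs of different number the median was -0.0053 (-0.521 to 0.454), and 20 were over 0.1. Of 16 libraries, 6 correlated best with their own number. These values do not settle whether animals of the same number were paired. The replicate block left the calls at 0 in all comparisons. With 4 animals per diet, the simulated recovery of 14 of 50 genes at 2-fold limits what these libraries can show.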
